A study of Homo sapiens with 6 samples.

Results

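The genes described here are 10 that mark the epithelial-mesenchymal transition (EMT), 6 transcription factors of the SNAI, TWIST and ZEB families, the homeobox factor PRRX1, and the mesenchymal proteins CDH2, VIM and CD44. They were taken by symbol from tables of 39282 genes, and all 10 were found. They were followed in the ovarian teratocarcinoma line PA-1 and the ovarian clear cell carcinoma line TOV21G. Each line had 1 library with the lentiviral hairpin sh-MEX3A#1 (hairpin 1), 1 with sh-MEX3A#2 (hairpin 2), and 1 with the scramble hairpin sh-Ctrl (control), so that all 6 libraries came from infected cells. MEX3A encodes a protein that binds RNA and carries a RING domain of ubiquitin ligases. The design text calls the depleted cells clones. Whether a line's libraries derive from independently grown cultures is not stated. The p-values rest on the spread between the 2 hairpins of a line, which mixes differences between reagents with spread that may be technical.

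EMT is a reversible change in which epithelial cells lose junctions and polarity and gain motility. SNAI and ZEB proteins are zinc-finger repressors, and TWIST proteins are basic helix-loop-helix factors. They bind E-boxes, short elements with the letters CANNTG, and the SNAI and ZEB proteins are known for silencing the E-cadherin gene CDH1 through them. N-cadherin (CDH2) commonly takes the place of E-cadherin as the junction protein, vimentin (VIM) forms the intermediate filaments of mesenchymal cells, and CD44 is a receptor for hyaluronan.

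The windows of 250 bases before the RefSeq start of CDH2, ZEB2 and CD44 are shown because these genes differed most in level between the lines among those with many counts in at least 1 line. They were chosen after the values were seen. RefSeq windows of the GRCh38.p14 build were found for 7 of the 10 genes. The CDH2 window lies at chr18:28177131-28177380 on the minus strand, the ZEB2 window at chr2:144520120-144520369 on the minus strand, and the CD44 window at chr11:35138921-35139170 on the plus strand. Capitals mark CANNTG, which is its own reverse complement as a pattern.
CDH2: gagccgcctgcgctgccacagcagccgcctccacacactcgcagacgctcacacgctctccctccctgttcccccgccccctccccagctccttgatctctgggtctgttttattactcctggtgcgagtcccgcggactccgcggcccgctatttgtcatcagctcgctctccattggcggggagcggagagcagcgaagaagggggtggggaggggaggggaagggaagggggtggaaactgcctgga
ZEB2: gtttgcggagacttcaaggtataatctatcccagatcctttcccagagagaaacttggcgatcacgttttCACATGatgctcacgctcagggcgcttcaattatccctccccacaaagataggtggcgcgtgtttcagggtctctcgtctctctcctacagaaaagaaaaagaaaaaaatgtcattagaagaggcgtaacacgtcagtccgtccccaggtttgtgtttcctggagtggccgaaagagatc
CD44: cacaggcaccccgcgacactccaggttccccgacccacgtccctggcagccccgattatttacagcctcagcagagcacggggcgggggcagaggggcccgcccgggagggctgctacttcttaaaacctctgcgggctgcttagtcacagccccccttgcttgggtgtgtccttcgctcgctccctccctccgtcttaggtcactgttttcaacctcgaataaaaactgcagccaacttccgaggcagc
The ZEB2 window held 1 match, CACATG, and the CDH2 and CD44 windows shown held none. RefSeq gives 2 windows for CDH2, and the matches of the other are not given here. Of 35116 RefSeq windows of this length, 61.8% held CANNTG and 17.5% held CAGGTG on either strand, which none of these 3 windows did. No match says only that these letters are absent from the window.

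The libraries held 14654628 to 19495162 expected counts, which are RSEM's estimates of reads per gene, and 3 counts (the limit that a count of 0 allows) were worth 0.153 to 0.202 CPM, counts scaled to the size of the library. Floors and intervals cover counting error only. MEX3A was at 14.9 and 18.8 TPM with the hairpins in PA-1, against 47.1 TPM in its control, and at 13.8 and 9.93 TPM with the hairpins in TOV21G, against 23.8 TPM in its control (TPM is RSEM's level corrected for transcript length). Its log2 fold change was -1.51 (SE 0.28, edgeR adjusted p = 1.00) in PA-1 and -1.10 (SE 0.29, edgeR adjusted p = 0.417) in TOV21G, and DESeq2 called it in PA-1 (adjusted p = 0.0478) and not in TOV21G (adjusted p = 0.164). Both lines are labelled as ovarian surface epithelial cells. Of 10 markers of pluripotent teratocarcinoma cells, 10 reached 1 TPM in each PA-1 library and 5 in each TOV21G library, with summed levels of 4656 to 5768 TPM and 81.7 to 119.7 TPM. The summed level of 10 markers of ovarian clear cell carcinoma was 418.4 to 1803 TPM in PA-1 and 4334 to 10491 TPM in TOV21G.

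VIM, ZEB1, ZEB2, CD44, TWIST1 and SNAI1 were detected in all 6 libraries. CDH2 and ZEB2 were higher in PA-1 than in TOV21G, and CD44 was lower. SNAI2 was detected in PA-1 alone, and PRRX1 was near the floor there. SNAI1 and ZEB1 did not pass the test, and TWIST1 and VIM had overlapping levels. Of the 9 genes that passed the filter on low counts, 5 were called in PA-1 against TOV21G at an adjusted p under 0.05 in edgeR, 3 higher and 2 lower. Among all 16855 genes tested, 44.2% were called, 22.4% higher and 21.8% lower in PA-1, so the share among these genes is near the background. DESeq2 called the same 5, and 43.4% of all genes. In 4 of the 9 genes all PA-1 libraries lay above all TOV21G libraries, as in 30.8% of all genes, and in 3 they lay below, as in 29.4%. SNAI2 passed the filter through PA-1 alone and PRRX1 through TOV21G alone, so these 2 calls were favoured by the filter; without them, 3 of 7 were called, 2 higher and 1 lower. In such bulk samples, fewer cells of a type and less RNA per cell cannot be told apart.

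**Figure D1:**
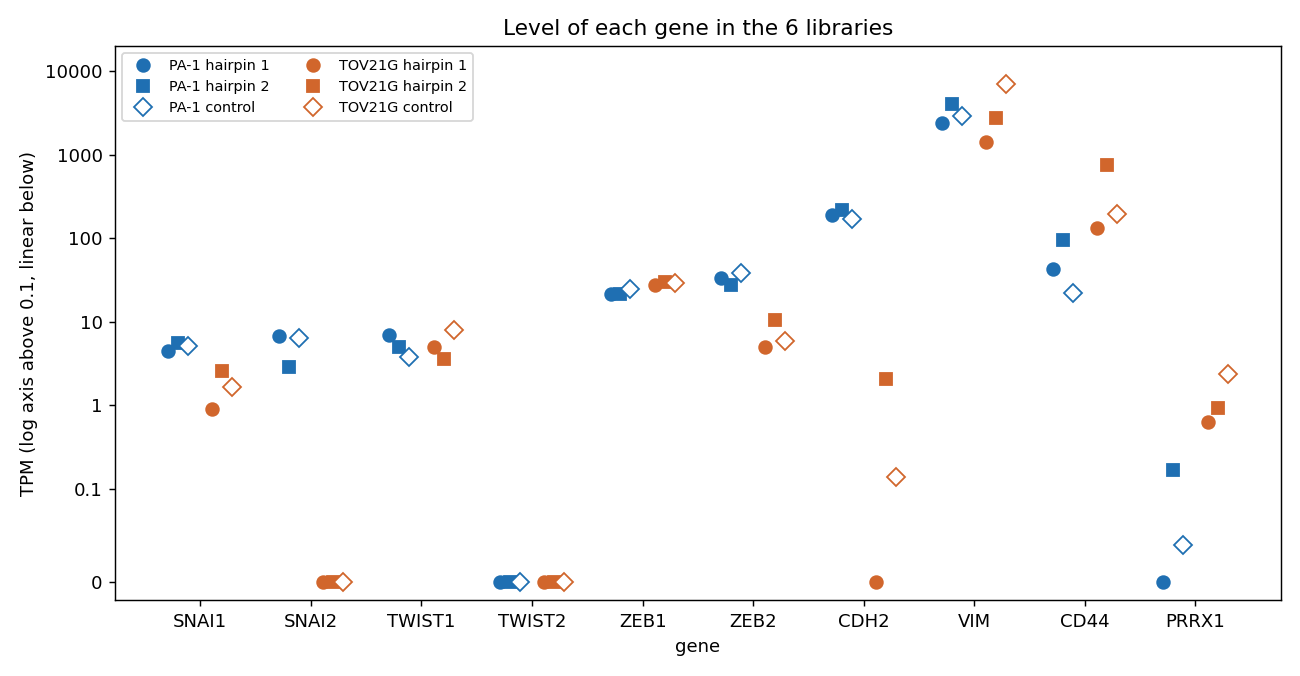
Level of each of the 10 genes in TPM (vertical axis, logarithmic above 0.1 TPM and linear below) in the 6 libraries, with PA-1 left of TOV21G and, within a line, hairpin 1, hairpin 2 and the control (open symbols) from left to right. CDH2 lies between 170 and 216 TPM in PA-1 and between 0 and 2.08 TPM in TOV21G, and TWIST2 is at 0 in all 6 libraries.

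SNAI1 encodes Snail, a repressor induced early in EMT. It was at 4.49 TPM with hairpin 1, 5.63 TPM with hairpin 2 and 5.07 TPM in the control of PA-1, against 0.90, 2.59 and 1.65 TPM in the same order in TOV21G. All PA-1 libraries were above all TOV21G libraries, but the difference of 1.38 on the log2 scale (SE 0.53) did not pass (edgeR adjusted p = 0.0876, DESeq2 adjusted p = 0.124). The difference was 1.07 without hairpin 1 of TOV21G and 1.93 without hairpin 2 of TOV21G. In these fits the PA-1 hairpins alone gave the spread. SNAI1 passed with the hairpin number, the same reagent in both lines, as a block (1.48, edgeR adjusted p = 0.0239). That fit assumed the same knockdown effect in both lines.

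SNAI2 encodes Slug, the relative of Snail that is typical of the neural crest. It was at 6.66, 2.89 and 6.39 TPM with hairpin 1, hairpin 2 and the control in PA-1, against 0 TPM in all 3 TOV21G libraries. The PA-1 levels came from 91, 50 and 89 expected counts, and a count of 0 in TOV21G allows 0.196 to 0.225 TPM. With 3 counts per TOV21G library as the floor, SNAI2 was at least 23.0-fold higher in PA-1.

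TWIST1 was at 7.01, 5.03 and 3.82 TPM with hairpin 1, hairpin 2 and the control in PA-1, against 5.05, 3.54 and 7.89 TPM in TOV21G. The ranges overlapped, and the log2 difference was -0.16 (SE 0.32, edgeR adjusted p = 0.706). Its sign depended on single libraries, since it was 0.04 without the PA-1 control and 0.17 without the TOV21G control. TWIST2, its close relative, had 0 counts in all 6 libraries, which allows up to 0.346 to 0.444 TPM.

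ZEB1, a zinc-finger repressor with a homeodomain, was at 21.2, 21.7 and 24.6 TPM with hairpin 1, hairpin 2 and the control in PA-1, against 27.2, 29.6 and 28.9 TPM in TOV21G. The PA-1 libraries all lay below those of TOV21G, by 0.49 on the log2 scale (SE 0.17), without passing (edgeR adjusted p = 0.0720, DESeq2 adjusted p = 0.0931). Without hairpin 1 of TOV21G the difference was -0.59, and without hairpin 2 of TOV21G it was -0.43. In these fits too the PA-1 hairpins alone gave the spread. With the hairpin number as a block, which assumed the same knockdown effect in both lines, the difference was -0.49 (edgeR adjusted p = 0.0376).

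ZEB2, its paralog, separated the lines. It was at 32.9, 27.4 and 38.4 TPM with hairpin 1, hairpin 2 and the control in PA-1, against 4.98, 10.6 and 5.95 TPM in TOV21G. The lowest PA-1 library was above the highest TOV21G library, and the log2 difference was 2.09 (SE 0.42, edgeR adjusted p = 0.0136). ZEB2 averaged 32.9 ± 5.48 TPM in PA-1 and 7.16 ± 2.98 TPM in TOV21G, and ZEB1 averaged 22.5 ± 1.85 TPM in PA-1 and 28.5 ± 1.19 TPM in TOV21G (SD, n = 3 each). The mean level of ZEB2 was thus above that of ZEB1 in PA-1 and below it in TOV21G, without overlap between the genes in either line.

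PRRX1, a homeobox factor of limb and craniofacial mesenchyme, was low everywhere. It was at 0, 0.17 and 0.04 TPM with hairpin 1, hairpin 2 and the control in PA-1, from 0, 6 and 1 expected counts, against 0.63, 0.92 and 2.38 TPM in TOV21G, from 17, 28 and 73. The groups did not overlap, and the log2 difference was -4.13 (SE 0.92, edgeR adjusted p = 0.0196), a fitted value that rests on 7 counts in PA-1 and on a gene kept by the filter for its TOV21G counts. The single count of the PA-1 control has an exact Poisson 95% interval of 0.0253 to 5.57 counts.

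CDH2 was the gene that set the lines furthest apart among those counted in both. It was at 190.7, 216.0 and 169.95 TPM with hairpin 1, hairpin 2 and the control in PA-1, against 0, 2.08 and 0.14 TPM in TOV21G. The TOV21G levels came from 0, 61 and 4 expected counts. The log2 difference was 8.23 (SE 1.24, edgeR adjusted p = 0.00604), and it was 12.76 without hairpin 2 of TOV21G, where nearly all of that line's counts lay, a fitted value that then rests on 4 counts.

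VIM was the most abundant of the 10 genes in every library. It was at 2367, 4038 and 2936 TPM with hairpin 1, hairpin 2 and the control in PA-1, against 1404, 2775 and 7055 TPM in TOV21G. The ranges overlapped, with the TOV21G control highest and TOV21G hairpin 1 lowest of all 6. The log2 difference of -0.18 (SE 0.39, edgeR adjusted p = 0.734) turned to 0.42 without the TOV21G control.

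CD44 was at 43.3, 94.3 and 22.3 TPM with hairpin 1, hairpin 2 and the control in PA-1, against 133.5, 747.9 and 196.7 TPM in TOV21G. All PA-1 libraries lay below all TOV21G libraries, and hairpin 2 was the highest in each line. The log2 difference was -3.03 (SE 0.79, edgeR adjusted p = 0.0310). It lost the call without the PA-1 control (-2.51, edgeR adjusted p = 0.0843) and was -1.88 without hairpin 2 of TOV21G. The transcript length that RSEM weighted by abundance was 4169 to 4291 bases in PA-1 and 4213 to 4304 bases in TOV21G, so CD44, a gene with many splice forms, had overlapping mean lengths in the lines.

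**Figure D2:**
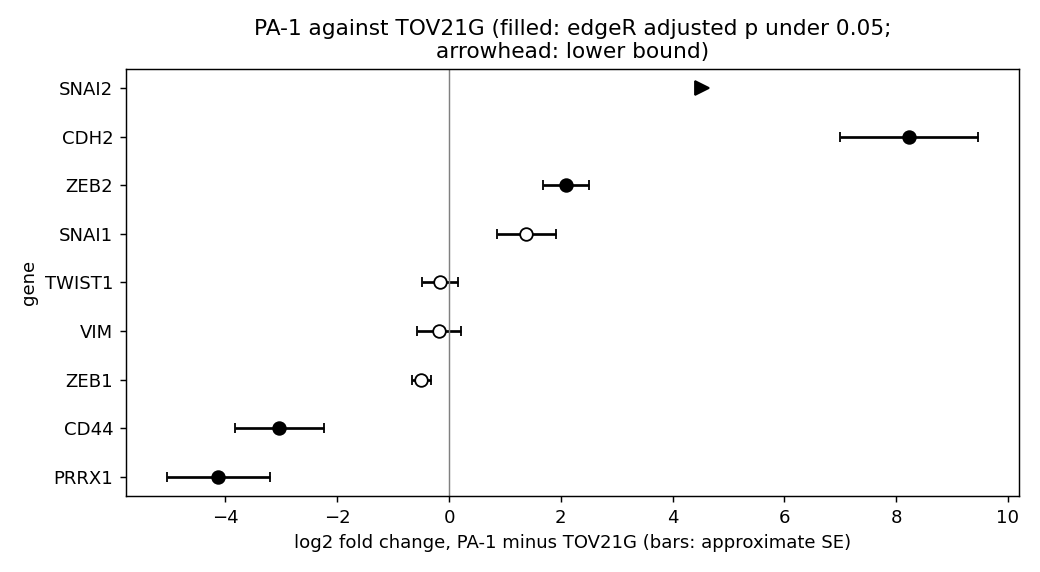
Log2 fold change of PA-1 against TOV21G (horizontal axis) for the 9 genes that passed the filter, with bars for the approximate SE and filled points for an edgeR adjusted p under 0.05. The arrowhead is the lower bound for SNAI2, which had 0 counts in TOV21G; CDH2 at 8.23 and PRRX1 at -4.13 are the outermost fitted values.

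Within a line, levels in TPM can be ordered across genes. In PA-1 VIM came first and CDH2 next, without overlap. CD44, ZEB2 and ZEB1 followed, where the CD44 libraries spanned both neighbours. SNAI2, TWIST1 and SNAI1, with means of 5.31, 5.29 and 5.06 TPM, could not be ordered within their spread. In TOV21G VIM was followed by CD44 and ZEB1. ZEB2 and TWIST1 overlapped there, as did SNAI1, PRRX1 and CDH2 with means of 1.71, 1.31 and 0.74 TPM.

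With MEX3A depleted, none of the 10 genes passed the test in either line with all 6 libraries and no block for the hairpin. In edgeR 0 genes were called in PA-1 (0% of 16855), 0 in TOV21G (0%) and 0 in the difference between the lines (0%). An unadjusted p under 0.05 was reached by 2.57%, 9.56% and 3.81% of genes in these comparisons, and DESeq2 called 0.214%, 1.34% and 0.113%, none of the 10 among them; SNAI1, TWIST1 and PRRX1 got no adjusted p from DESeq2 in TOV21G. With the hairpin number as a block, edgeR called 13 genes in PA-1 and 36 in TOV21G, with VIM in TOV21G the 1 EMT gene among them. That block fit assumed the same difference between the hairpins in both lines. The absence of calls does not show that levels were alike, since the spread came from 2 residual degrees of freedom. The values with each hairpin are given next as differences in log2 CPM (prior count 2) from the control of the line, for genes with at least 10 counts in the hairpin library or the control. Shares over all genes for both hairpins, 2-fold or opposite sides, needed at least 10 counts in any library of the line.

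VIM and PRRX1 in TOV21G were at least 2-fold lower with both hairpins, 2 of the 7 genes with a value for both, against 3.28% of all genes. Both hairpins were set against the same control library, so their values are not independent. VIM differed from its TOV21G control by -2.51 with hairpin 1 and -1.34 with hairpin 2. Its fitted log2 fold change was -1.81 (SE 0.56, edgeR unadjusted p = 0.0223, adjusted p = 0.467, DESeq2 adjusted p = 0.0735). With the hairpin number as a block it passed (-1.92, edgeR adjusted p = 0.0420), in a fit that assumed the same difference between the hairpins in both lines. In PA-1, VIM stood on both sides of the control, at -0.39 with hairpin 1 and 0.46 with hairpin 2. The effect in PA-1 minus that in TOV21G was 1.91 (SE 0.83, edgeR adjusted p = 1.00).

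PRRX1 differed from its TOV21G control by -1.97 with hairpin 1 and -1.28 with hairpin 2, from 17 and 28 counts against 73 in the control, and its fitted log2 fold change was -1.66 (SE 1.01, edgeR adjusted p = 0.639). The exact Poisson 95% intervals were 9.90 to 27.2 counts with hairpin 1 and 18.6 to 40.5 with hairpin 2, against 57.2 to 91.8 in the control. They cover counting error and not the spread between cultures. In PA-1 no fold is given for PRRX1, which was at or near the floor.

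TWIST1 stood on opposite sides of the control in the lines. In PA-1 it was above the control by 0.79 with hairpin 1 and 0.37 with hairpin 2 (fitted 0.62, SE 0.49, edgeR adjusted p = 1.00). In TOV21G it was at -0.78 with hairpin 1 and -1.19 with hairpin 2, below the control (fitted -0.999, SE 0.46, edgeR adjusted p = 0.569). The difference between the effects was 1.62 (SE 0.68, edgeR unadjusted p = 0.0624, adjusted p = 1.00), so it did not pass. Of all genes, 33.8% were above the control with both hairpins in PA-1 and 31.9% below it with both in TOV21G. The libraries held 35 to 85 counts of TWIST1.

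CD44 was higher with hairpin 2 than with hairpin 1 in both lines. With hairpin 2 it was above the control by 2.06 in PA-1 (4.16-fold) and by 1.95 in TOV21G (3.87-fold). With hairpin 1 it was at 0.83 in PA-1 and at -0.77 in TOV21G. Hairpin 2 was above hairpin 1 by 1.23 in PA-1 and by 2.72 in TOV21G, and such an excess of at least 2-fold in both lines was seen in 1% of all genes. The fitted log2 fold changes were 1.57 (SE 1.19, edgeR adjusted p = 1.00) in PA-1 and 1.16 (SE 1.16, edgeR adjusted p = 0.769) in TOV21G. The hairpins are 1 library each in a line, so a difference between reagents and a difference between cultures cannot be told apart.

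CDH2 had 61 counts with hairpin 2 in TOV21G (exact Poisson 95% interval 46.7 to 78.4), against 4 in the control (1.09 to 10.2), and 0 with hairpin 1. The log2 difference for hairpin 2 was 3.46. The pooled fit gave 2.94 (SE 2.21, edgeR adjusted p = 0.697). Without hairpin 1 it was 3.94, from 1 TOV21G library against 1, with the spread taken from the PA-1 hairpins alone. In PA-1, CDH2 was at 0.11 with hairpin 1 and 0.40 with hairpin 2, relative to the control. In the TOV21G library with hairpin 2, 5 of the 10 pluripotent markers reached 1 TPM, as in the other TOV21G libraries, and 4 were at 0 (DPPA4, LIN28B, NANOG and TDGF1). The markers summed to 117.3 TPM with hairpin 1 and 119.7 TPM with hairpin 2, against 81.7 TPM in the control. Their part in the CDH2 counts was not tested.

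The SNAI and ZEB genes did not pass the test in either line. In PA-1, ZEB1 was at -0.28 and -0.18, ZEB2 at -0.33 and -0.50, SNAI1 at -0.25 and 0.15, and SNAI2 at -0.02 and -1.10 with hairpin 1 and hairpin 2. In TOV21G, ZEB1 was at -0.25 and 0.07, ZEB2 at -0.61 and 0.87, and SNAI1 at -0.92 and 0.61. The hairpins fell on opposite sides of the control for 2 of 8 genes in PA-1 and 4 of 7 in TOV21G, against 29.7% and 33.9% of all genes. In TOV21G the 33.9% also covers genes such as CDH2, which the 7 leave out. CDH2 had 0, 61 and 4 counts there with hairpin 1, hairpin 2 and the control. A difference of at least 2-fold in either direction was seen in 0 of 8 genes with hairpin 1 and 2 of 8 with hairpin 2 in PA-1, and in 2 of 7 and 5 of 8 in TOV21G. Among all genes the shares were 6.74% and 8.45% in PA-1 and 15.5% and 23.1% in TOV21G.

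**Figure D3:**
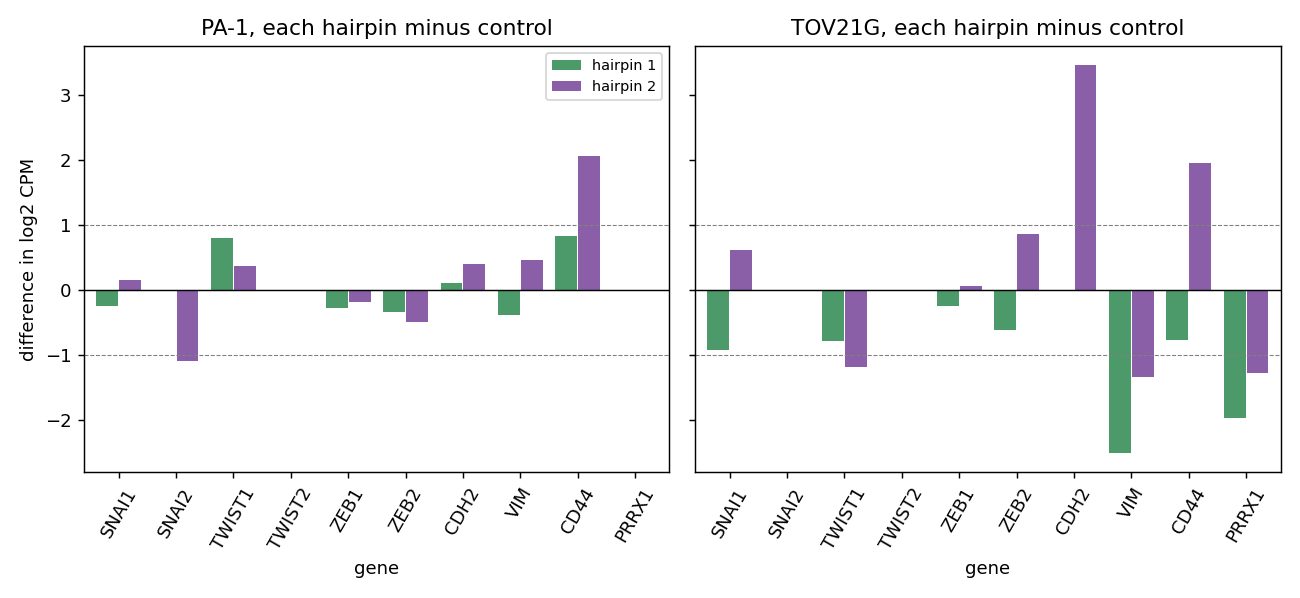
Difference in log2 CPM between each hairpin and the control of its line (vertical axis, dashed lines at 2-fold) for the 10 genes, in PA-1 (left) and TOV21G (right); genes under 10 counts in both libraries have no bar. VIM and PRRX1 lie below the lower dashed line with both hairpins in TOV21G, and CD44 lies above the upper one with hairpin 2 in both lines.

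The context of these genes was read from lists of related genes, counted in the same fits. Each count of called genes is to be read against the 22.4% higher and 21.8% lower among all genes, and no test of a list was made. Of 16 further EMT-linked transcription factors tested, 4 were higher and 5 lower in PA-1 than in TOV21G, near the share over all genes. TCF4, an E protein that pairs with TWIST factors, was at 43.3 to 65.1 TPM in PA-1 and at 0.04 to 0.22 TPM in TOV21G (log2 difference 8.72, SE 0.27, edgeR adjusted p = 0.000352). LEF1, which carries Wnt signals to genes, was at 19.68 to 31.01 TPM in PA-1 and at 0 to 0.20 TPM in TOV21G. SOX4 (-1.74, SE 0.22) and FOXC2 (-3.52, SE 0.47) were lower in PA-1. ETS1 was at 18.5, 46.5 and 11.3 TPM with hairpin 1, hairpin 2 and the control in PA-1, against 53.6, 55.4 and 36.9 TPM in TOV21G, and did not pass (edgeR adjusted p = 0.0583).

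Of 26 partners and turnover factors of the EMT proteins, 7 were higher and 7 lower in PA-1, near the share over all genes. ID1, ID2 and ID3, which bind E proteins and keep them from DNA, were all lower in PA-1, by log2 differences of -2.43, -2.59 and -2.32 (SE 0.21, 0.28 and 0.21, edgeR adjusted p from 0.00122 to 0.00229). In TOV21G ID3 was at 1254 TPM with hairpin 1 and 1189 TPM with hairpin 2, against 211.9 TPM in the control. DESeq2 called that difference (adjusted p = 1.64e-07) and edgeR did not (log2 fold change 2.43, SE 0.34, adjusted p = 0.382). EZH2, the methyltransferase of Polycomb repression, was higher in PA-1 (1.46, SE 0.20). PAK1, a kinase that acts on Snail, was also higher (1.85, SE 0.18), and MDM2, a ubiquitin ligase of p53, was lower (-1.05, SE 0.26). The corepressor CTBP1 did not pass (0.52, SE 0.19, edgeR adjusted p = 0.0720).

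Of 27 epithelial genes tested, 6 were higher and 11 lower in PA-1, against 22.4% and 21.8% of all genes. CDH1, the target of these repressors, was low in both lines, at 1.08 to 1.96 TPM in PA-1 and 0.54 to 1.26 TPM in TOV21G, and the difference did not pass the test (0.46, SE 0.43, edgeR adjusted p = 0.427). EPCAM, an epithelial adhesion protein, was at 0.11 to 0.17 TPM in PA-1 and 9.24 to 23.1 TPM in TOV21G (-6.90, SE 0.59, edgeR adjusted p = 0.00122). ELF3, an epithelial transcription factor, and ESRP2, a regulator of epithelial splicing, were also lower in PA-1 (-4.23, SE 0.20, and -3.97, SE 0.29). ESRP1, the paralog of ESRP2, was higher there (3.76, SE 0.80), at no more than 0.93 TPM.

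Of 16 other cadherins and catenins tested, 9 were higher and 2 lower in PA-1, against 22.4% and 21.8% of all genes, which also holds for the lists that follow. CDH6, a cadherin of kidney and neural crest, was at 102 to 166.2 TPM in PA-1 and 0 to 0.70 TPM in TOV21G. CDH7 and CDH9 were measured in PA-1 (0.80 to 1.66 and 1.84 to 2.92 TPM) and were at 0 in TOV21G. JUP, the junction protein plakoglobin, was lower in PA-1 (-1.29, SE 0.20). Of 17 other intermediate filaments, 7 were higher and 5 lower, among them NES, the nestin of neural progenitors, at 190.4 to 237.7 TPM in PA-1 and 13.4 to 22.9 TPM in TOV21G. Of 16 CD44 ligands, partners and sheddases, 2 were higher and 4 lower. SPP1, the CD44 ligand osteopontin, was lower in PA-1 (-2.81, SE 0.36), at 1618, 1450 and 284.1 TPM with hairpin 1, hairpin 2 and the control, against 2759, 5622 and 9013 TPM in TOV21G. MMP14, a protease that cleaves CD44, was lower in PA-1 as well (-1.32, SE 0.19), and HMMR, another hyaluronan receptor, was higher (1.48, SE 0.16).

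Mesenchymal effectors, the matrix, adhesion and contractile genes of the EMT state, numbered 32 among the genes tested. Of these, 15 were higher and 7 lower in PA-1, against 22.4% and 21.8% of all genes. FN1, the matrix protein fibronectin, was at 168.7, 132.6 and 42.2 TPM with hairpin 1, hairpin 2 and the control in PA-1, against 1.21, 2.14 and 0.41 TPM in TOV21G (6.51, SE 0.36, edgeR adjusted p = 0.000525). The collagen gene COL5A2 was higher in PA-1 as well (5.77, SE 0.31), and its relative COL1A2 was lower (-7.17, SE 0.30).

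In PA-1, 25 of the 32 effectors were above the control with both hairpins and 5 below with both, against 33.8% and 34% of all genes. These counts and medians describe a list chosen with earlier results of these data known, and are no test of it. Their median log2 fold change was 0.73, against 0 over all genes. In TOV21G, 19 were above and 5 below, against 31.3% and 31.9% of all genes, with a median of 1.02, against 0.02 over all genes. None passed in edgeR. DESeq2 called 5 higher in PA-1 (FN1, COL5A2, LOX and TNC among them) and 7 higher in TOV21G (FN1, MMP2, ITGA5, COL1A1, COL5A1 and TGFBI among them), and 0 lower in either line. Over all genes DESeq2 called 34 higher and 2 lower in PA-1, and 94 higher and 132 lower in TOV21G. COL5A2, a chain of type V collagen, was at 115.2 and 170.6 TPM with the hairpins in PA-1, against 24.3 TPM in the control. COL1A1, a chain of type I collagen, was at 40.5 and 63.6 TPM with the hairpins in TOV21G, against 3.10 TPM in the control. Of the EMT genes with a value for both hairpins, none was at least 2-fold higher with both hairpins in either line, as were 3.29% of all genes in PA-1 and 4.31% in TOV21G. None was at least 2-fold lower with both in PA-1, as were 0.589%.

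The effector list shares genes with a list of 10 fibroblast markers, whose summed level was also higher with the hairpins. It was 152.4 and 211.5 TPM with the hairpins in PA-1, against 96.1 TPM in the control, and 44.6 and 68.8 TPM with the hairpins in TOV21G, against 5.92 TPM in the control. FAP, a fibroblast marker, was at 0 TPM in all PA-1 libraries and at no more than 0.10 TPM in TOV21G, and 6 of the 10 fibroblast markers reached 1 TPM in each PA-1 library and 2 in each TOV21G library. Of 10 leukocyte markers, 2 reached 1 TPM in each PA-1 library and 1 in each TOV21G library, with sums of 10.4 to 19.0 TPM and 3.67 to 10.4 TPM; PTPRC was at no more than 0.06 TPM. The summed clear cell markers were 1803 and 1654 TPM with the hairpins in PA-1, against 418.4 TPM in the control, and 4334 and 6837 TPM with the hairpins in TOV21G, against 10491 TPM in the control. The part of such markers in the list's values was not tested, nor was their part in the values of the EMT genes. Of the 27 epithelial genes tested, 12 were above the control with both hairpins and 5 below in PA-1, against 33.8% and 34% of all genes. In TOV21G, 15 were above and 5 below, against 31.3% and 31.9% of all genes. Their median log2 fold changes were 0.36 in PA-1 and 0.54 in TOV21G, against 0 and 0.02 over all genes.

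**Figure D4:**
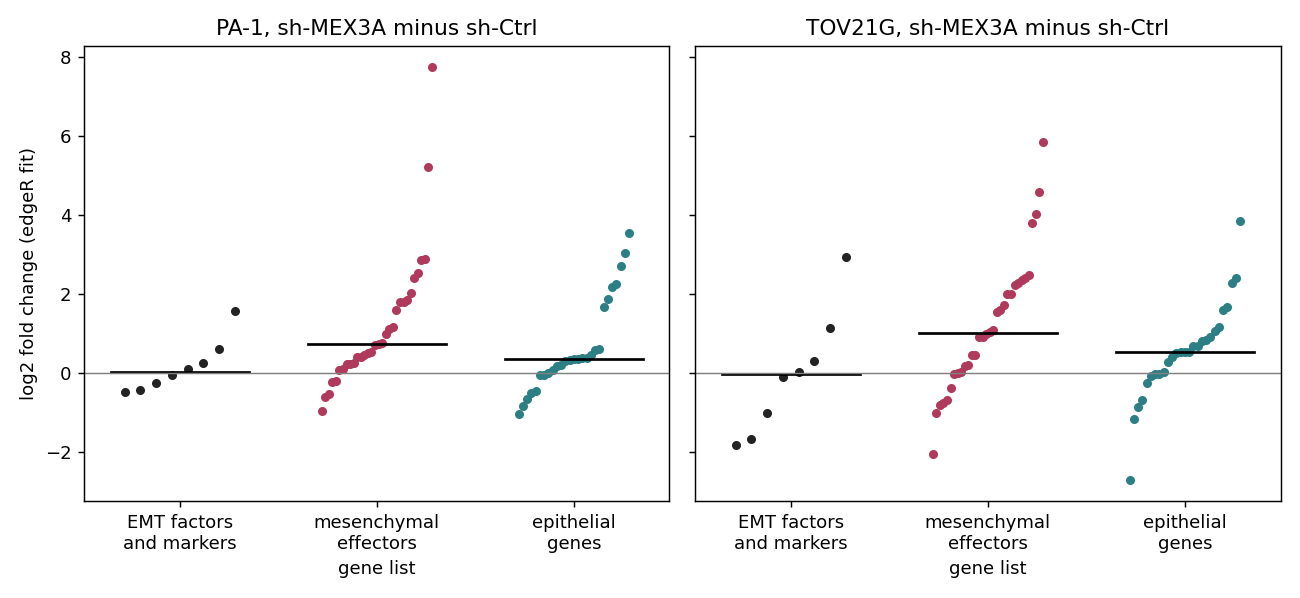
Fitted log2 fold change of sh-MEX3A against sh-Ctrl (vertical axis) for the EMT genes with a fitted value, the mesenchymal effectors and the epithelial genes, sorted within each list, in PA-1 (left) and TOV21G (right); horizontal bars are medians, and values of genes at 0 counts on one side depend on the prior count. The effectors have medians of 0.73 and 1.02, and their upper ends lie above those of the EMT genes.

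For the 7 EMT genes whose log2 CPM spanned at least 2 over the 6 libraries, the genes with the most similar course were found by the root mean square difference of mean-centred log2 CPM over those 6 libraries. CDH2 was nearest to DPYSL3 (0.34), a cytoskeletal protein of growing neurons, and to NID1 (0.66), a basement membrane protein. SNAI2 was nearest to SOX11 (0.16), a factor of neural progenitors, and MAGEH1 (0.20). ZEB2 was nearest to LOC100996842 (0.17) and LRIG1 (0.19), and CD44 to RBP7 (0.15) and CRIM1 (0.21). VIM was nearest to KLHDC9 (0.26) and ODAD4 (0.28), SNAI1 to BRSK2 (0.06) and ARHGEF16 (0.14), and PRRX1 to ATP1B1 (0.40) and FBXO43 (0.41). These are descriptions over 6 libraries of 2 lines, and the nearest of many genes is close by choice.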

How the data were processed

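Poly(A)-selected RNA of 6 samples was sequenced in libraries prepared with a kit that marks strand with dUTP. The authors deposited RSEM gene tables with expected counts, TPM, FPKM and transcript lengths, per the file headers; FPKM were not used. Per the submitters' processing notes, cutadapt 1.12, STAR 2.5.3a, RSEM 1.2.31 and edgeR 3.26.8 were named, with hg38 as the build. The strand setting of the counting is not given in the sources used here, so VIM and ZEB1, which have antisense genes, are less certain. TPM were used as deposited.

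The deposited expected counts were rounded and fitted in edgeR 4.0.16 (R 4.3.3): TMM scaling, filterByExpr (minimum count 10, 16855 genes kept), 1 mean for each of 4 groups, quasi-likelihood F test with 2 residual degrees of freedom, and Benjamini-Hochberg adjustment over all genes tested at 0.05. The test added to these degrees of freedom by moderating each gene's dispersion across genes. The line comparison weighted the 3 libraries of each line equally. Both hairpins of a line gave the spread, so it includes differences between reagents, and each single control was assumed to vary alike. The common biological coefficient of variation was 0.295. An approximate SE was taken as the size of the log2 fold change over the root of F. Single hairpins were set against their control without a test. The knockdown comparisons of a line share its control. DESeq2 1.42.0, other scalings, no filter, a block for the hairpin number, 1 mean per line and leaving out each library were tried as alternatives. Between the lines, the block fit assumed the same knockdown effect in both lines. For the knockdown comparisons it kept the 4 group means and added a term for the hairpin number, with fewer residual degrees of freedom. That term assumed the same difference between the hairpins in both lines. The fit was tested on simulated data.

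The genes and lists were chosen with earlier results of these data known. Named were the 10 genes, MEX3A, per list up to 4 genes with the smallest p between the lines and up to 3 in each knockdown comparison, CDH1, EPCAM, ESRP1, FN1 and CTBP1, and the 2 nearest genes of each EMT gene that spanned at least 2 in log2 CPM; a selection of these is printed, and MMP2, ITGA5 and TGFBI were added after their values were seen, to fill out a count. Some listed genes are not reported here. Markers of neural, endothelial and leukocyte cells were also summed. Python 3.11.15 and matplotlib 3.10.9 drew the figures.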

Additional observations from a re-analysis of the deposited data

Results flagged for a closer look

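TWIST1 stood above the control with both hairpins in PA-1 and below it with both in TOV21G, which is why it is listed here. Of all genes, 33.8% were above with both hairpins in PA-1 and 31.9% below with both in TOV21G. The share with both patterns was not counted. The effect in PA-1 minus the effect in TOV21G was 1.62 on the log2 scale (SE 0.68), and the test of that difference did not pass (edgeR adjusted p = 1.00). Groups of 4 to 10 libraries, in which a single distant library could be tested, do not exist in this design.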

How the results depend on the processing

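Of the 5 EMT genes called between PA-1 and TOV21G, 4 (SNAI2, ZEB2, CDH2 and PRRX1) kept direction and call under every alternative run, and CD44 lost its call without the PA-1 control. The levels of these 5 did not overlap between the lines, so leaving out 1 library could not turn their direction. SNAI2 and PRRX1 passed the filter through 1 line alone, which favoured their calls. Leaving out 1 library at a time gave 4 to 7 called EMT genes and 4208 to 10055 called genes, against 7442 (4208 without hairpin 1 and 4388 without hairpin 2 of PA-1). SNAI1 and ZEB1 passed with 1 mean per line (edgeR adjusted p = 0.0416 and 0.0465). Scaling gave a median shift over all genes of at most 0.051 on the log2 scale.

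DESeq2 called 36 genes in PA-1, 226 in TOV21G and 19 in the difference of effects, where edgeR called 0. Leaving out 1 library gave 0 to 1489 genes and 0 to 1 EMT genes in TOV21G, with CDH2 the 1 gene and 1489 the count without hairpin 1; a group left with 1 library was assumed to vary like the others. Hairpins of the same number are the same reagent in both lines, with no shared batch or culture stated; hairpin 2 minus hairpin 1 correlated between the lines at r = 0.39 over 11556 genes, from 2 pairs. With the hairpin number as a replicate block, 13 genes were called in PA-1 and 36 in TOV21G, with 1 EMT gene among them, VIM (-1.92, edgeR adjusted p = 0.0420). This block assumed the same difference between the hairpins in both lines. SNAI1 and ZEB1 passed between the lines in a separate block fit (edgeR adjusted p = 0.0239 and 0.0376). That fit assumed the same knockdown effect in both lines. In the block fit of the knockdown comparisons, SNAI1 turned to -0.11 in TOV21G and to 0.070 in the difference. The block changed no other call of these genes. The cause was not tested.

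Signs turned when 1 library was left out. Between the lines, TWIST1 ranged from -0.43 to 0.17 and VIM from -0.72 to 0.42. In PA-1, SNAI1 ranged from -0.25 to 0.15 and VIM from -0.39 to 0.47. In TOV21G, the ranges were -1.05 to 0.65 for SNAI1, -0.25 to 0.066 for ZEB1, -0.62 to 0.87 for ZEB2, -5.15 to 3.94 for CDH2 and -0.77 to 1.95 for CD44. In the difference of effects, they were -0.69 to 1.02 for SNAI1, -0.30 to 0.026 for ZEB1, -1.28 to 0.21 for ZEB2, -3.67 to 5.42 for CDH2 and -0.38 to 2.35 for CD44. Depth limits SNAI2, PRRX1 and CDH2 in the line where each had few counts.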

Other observations

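Genes antisense to 2 of the EMT genes were counted in all libraries. VIM-AS1 was at 1.82 and 2.26 TPM with the hairpins in PA-1, against 1.40 TPM in the control, and at 8.59 and 6.20 TPM with the hairpins in TOV21G, against 2.88 TPM in the control. In TOV21G its order was thus opposite to that of VIM, which was lower with both hairpins. ZEB1-AS1 was at 13.7 and 10.8 TPM with the hairpins in PA-1, against 7.27 TPM in the control, and at 12.4 and 4.89 TPM with the hairpins in TOV21G, against 6.14 TPM in the control. No test was made on these levels.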
